A study of Mus musculus with 8 samples.

Results

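Collagen is made, modified and matured by a long chain of enzymes and chaperones, and the 35 genes described here encode that chain in the mouse. They were chosen by name as prolyl and lysyl hydroxylases, collagen glycosyltransferases, collagen chaperones and isomerases of the endoplasmic reticulum (ER), export factors, procollagen proteinases with their enhancers, and crosslinking enzymes. All 35 were among the 40840 genes in the tables, and all 35 were among the 19963 genes tested, which held at least 10 counts in total. RNA had been sequenced in 8 cultures of primary myofibroblastic hepatic stellate cells (pMF-HSCs), the collagen-secreting cells into which the vitamin A-storing stellate cells of the liver turn on plastic. The stellate cells came from wild-type male C57BL/6J mice of 15 to 18 weeks, were sorted on their retinol autofluorescence and were cultured for 7 days in medium with serum. The control group (n = 4) received the vehicle DMSO for 24 h and the OGTi group (n = 4) received 50 µM OSMI-1 over the same 24 h. OSMI-1 is a small molecule directed against O-GlcNAc transferase (OGT), which places the sugar O-GlcNAc on nuclear and cytoplasmic proteins. The comparison addresses which steps of collagen maturation respond, at the level of RNA, when that enzyme is inhibited. The 4 replicates were independent experiments in which treated and control cells were paired, no source used here says whether animals were pooled, and a single inhibitor at a single dose stands for loss of OGT activity in these libraries.

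A newly made procollagen chain enters the ER, where prolyl 4-hydroxylases, prolyl 3-hydroxylases and lysyl hydroxylases modify it, sugars are added to hydroxylysine, and prolyl isomerases and the chaperone HSP47 help the triple helix to fold. The folded trimer is too long for an ordinary transport vesicle and leaves through enlarged COPII carriers organised by TANGO1. Outside the cell, or on the way there, the N- and C-propeptides are cut off, after which lysyl oxidases join the fibrils covalently. In liver fibrosis, stellate cell myofibroblasts are the main source of the type I and type III collagen that these proteins serve.

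Sequencing depth was similar across libraries, with totals of 30068876 to 37372420 estimated counts. The labelled cell type was checked against marker genes. The summed abundance of 13 markers of myofibroblastic stellate cells, such as Acta2 and Dcn, was 6780 to 17002 TPM (transcript abundance as a length-corrected share of the library). Hepatocyte markers summed to at most 1.07 TPM, and endothelial ones to 1.52 to 3.03 TPM in control and 0.32 to 0.98 TPM in OGTi cultures. The 8 macrophage markers summed to 49.9 to 181 TPM in control and 89.9 to 230 TPM in OGTi cultures, and Cd68 was the only member of that list that passed the test, as higher. Lyz2 was highest in replicate 3, at 138 TPM in control and 168 TPM in OGTi. It was higher in 4 of 4 pairs without passing (edgeR adjusted p = 0.0964). Adgre1, C1qa and C1qb held at most 2 counts in any library of replicates 1 and 2, against 61, 103 and 118 in control replicate 3. In the list for mesothelial cells and portal fibroblasts, Fbln2 supplied nearly all of the 68.5 to 186 TPM in control and 7.72 to 58.3 TPM in OGTi cultures, while Msln, a defining mesothelial marker, stayed at or under 1.53 TPM. Cholangiocyte markers summed to 307 to 654 TPM in control and 128 to 563 TPM in OGTi cultures, made up mainly of Spp1 at 71.2 to 535 TPM and Krt19 at 46.5 to 139 TPM over the 8 libraries, while Epcam was at or under 0.79 TPM. Tek and Lyve1 of the endothelial list, Krt19 of the cholangiocyte list and Fbln2 were lower after OGTi, and Sox9 of the cholangiocyte list was higher. The part of other cell types in the results below was not tested. Of the 13 stellate cell markers, Pdgfrb, Pdgfra and Lrat passed the test as lower after OGTi, and none passed as higher. These 3 were 23.1% of the list, against 10.2% of all genes tested. Of the 13 fold changes, 7 were negative and 6 positive. Tagln, Timp1 and Lum were higher in 4 of 4 pairs without passing, with log2 fold changes of 0.53, 0.52 and 0.41. Since RNA was taken from whole cultures, fewer cells of a type and less RNA per cell cannot be told apart.

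Few of the 35 genes changed. After OGTi, 4 of 35 members were lower (11.4%) and 0 were higher at an adjusted p of at most 0.05 in edgeR, whereas 18.4% of all genes tested were called, 10.2% lower and 8.13% higher. The share of lower members was thus near the background. Of all genes called, 44.3% were higher, but 30.1% with libraries scaled by their totals and 25.7% in TPM (1 added before the logarithm). Over all members the directions were mixed, since 18 fold changes were negative and 17 positive, with a median log2 fold change of -0.16 against 0.01 for all genes tested. Over the alternatives that median ran from -0.43 in TPM (0.1 added) to 0.05 without replicate 3, with -0.35 under library totals, -0.26 without replicate 4 and -0.01 with the length trend removed. The 4 genes that fell were the prolyl isomerases Fkbp10 and Fkbp14 and the procollagen N-proteinases Adamts14 and Adamts3. By role, 2 of 4 ER chaperones and isomerases and 2 of 8 genes of propeptide cleavage fell. No gene passed the test among the 4 of prolyl 4-hydroxylation, the 4 of the prolyl 3-hydroxylase group, the 7 of lysyl hydroxylation and glycosylation, the 2 of ER export and the 6 of crosslinking.

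**Figure D1:**
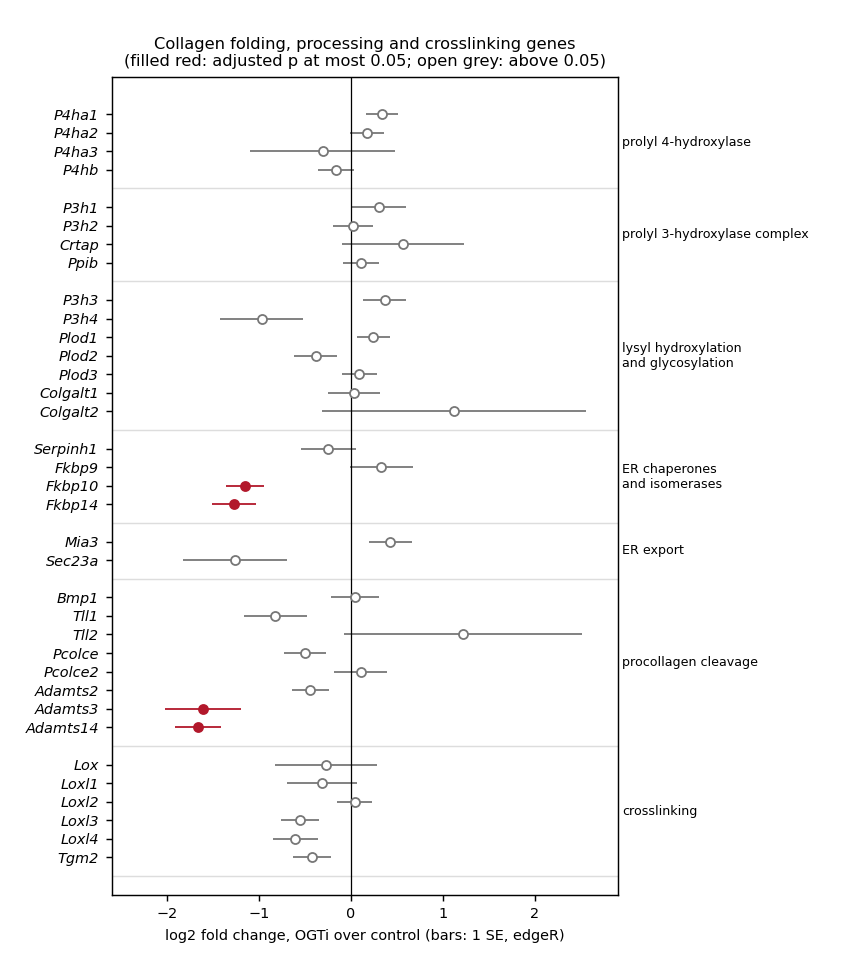
Log2 fold change of each of the 35 genes, OGTi over control (x axis), with bars of 1 standard error from edgeR (n = 4 pairs), grouped by role along the y axis. Filled red points passed an adjusted p of 0.05 and these 4 genes all lie left of zero; open grey points did not pass.

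The regions upstream of the 4 genes that fell are shown because these genes moved in the same direction, and they were read from the GRCm39 assembly as the 250 bases before the annotated start of the canonical GENCODE transcript. For Fkbp10 (chromosome 11, positions 100305808 to 100315669, plus strand) the window lies wholly within annotated exons and is not printed. The windows of Fkbp14 (gene at chromosome 6, 54554580 to 54574293), Adamts3 (chromosome 5, 89822720 to 90031649) and Adamts14 (chromosome 10, 61032891 to 61109232), all on the minus strand, hold no annotated exon. Those of Adamts3 and Adamts14 lie directly upstream of the gene, and that of Fkbp14 lies within the annotated span of the gene, where a longer transcript has an intron. The window of Loxl3 (chromosome 6, 83011152 to 83029543, plus strand) also holds none and is added as that of the member that came nearest to the threshold without passing. Capitals mark 3 short motifs on either strand: CATTCC, which TEAD factors bind, TGACG, which is found in cyclic AMP response elements, and CCACG, which forms part of the ER stress response element.
Fkbp14, chr6:54570229-54570478, minus strand: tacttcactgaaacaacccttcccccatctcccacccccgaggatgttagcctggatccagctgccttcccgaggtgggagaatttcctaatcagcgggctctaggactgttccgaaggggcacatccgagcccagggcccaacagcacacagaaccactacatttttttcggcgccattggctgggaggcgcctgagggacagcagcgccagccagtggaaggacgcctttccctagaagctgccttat
Adamts3, chr5:90031650-90031899, minus strand: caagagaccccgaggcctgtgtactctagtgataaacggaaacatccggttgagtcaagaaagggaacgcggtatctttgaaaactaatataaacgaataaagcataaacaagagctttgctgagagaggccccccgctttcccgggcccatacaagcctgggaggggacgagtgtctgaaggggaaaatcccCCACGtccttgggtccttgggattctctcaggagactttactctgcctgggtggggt
Adamts14, chr10:61109233-61109482, minus strand: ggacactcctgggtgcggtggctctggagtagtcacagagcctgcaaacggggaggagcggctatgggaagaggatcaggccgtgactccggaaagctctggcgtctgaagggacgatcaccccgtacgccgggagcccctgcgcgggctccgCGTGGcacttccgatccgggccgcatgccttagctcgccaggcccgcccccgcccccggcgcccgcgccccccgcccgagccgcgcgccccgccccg
Loxl3, chr6:83010902-83011151, plus strand: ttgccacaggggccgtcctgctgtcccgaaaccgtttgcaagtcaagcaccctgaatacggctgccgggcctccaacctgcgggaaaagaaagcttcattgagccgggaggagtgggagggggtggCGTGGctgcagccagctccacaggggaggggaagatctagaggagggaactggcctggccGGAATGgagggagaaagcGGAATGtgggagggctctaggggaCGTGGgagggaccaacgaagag
The windows of Adamts3 and Adamts14 each hold 1 match to CCACG, which reads CGTGG in Adamts14 because it lies on the other strand, while those of Fkbp14 and Fkbp10 hold none of the 3 motifs. The Loxl3 window holds 2 matches to the TEAD motif, both written as GGAATG, and 2 to CCACG. Over all 35 members, 3 windows hold CATTCC (8.57%), 6 hold TGACG (17.1%) and 15 hold CCACG (42.9%), against 12.1%, 18% and 30.4% of 21770 windows of the same length. In the window of P3h3 alone, a match of CCACG overlaps one of TGACG. A match describes letters in a window only, and no test was made of it.

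Fkbp10 encodes FKBP65, a collagen-binding prolyl isomerase of the ER that also assists lysyl hydroxylase 2 and whose loss causes brittle bones. Its scaled counts, which are counts brought to a common library size, were 13762, 16924, 18257 and 20177 in control replicates 1 to 4 and 6593, 10198, 8216 and 6430 in OGTi replicates 1 to 4. Every OGTi library lay below every control library. The mean was 17280 ± 2699 in control and 7859 ± 1755 after OGTi (n = 4, SD), and the log2 fold change was -1.15 ± 0.21 (SE, adjusted p = 0.00431), lower in 4 of 4 pairs. The fold change of single pairs ranged from -0.73 in pair 2 to -1.65 in pair 4 on the log2 scale.

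Fkbp14 encodes FKBP22, a smaller ER isomerase with affinity for type III collagen, mutated in a kyphoscoliotic form of Ehlers-Danlos syndrome. Control replicates 1 to 4 held 2843, 3419, 4524 and 4061 scaled counts and OGTi replicates 735, 1934, 2238 and 1637. The groups did not overlap, and OGTi replicate 1 was the lowest library. The log2 fold change was -1.27 ± 0.24 (SE, n = 4 pairs, adjusted p = 0.00533), with 4 of 4 pairs lower.

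The other 2 genes of that role did not pass. Serpinh1, which encodes HSP47, the chaperone specific to procollagen, was the most abundant of all members, with a mean of 2242 ± 609 TPM in control and 1626 ± 714 TPM in OGTi (SD, n = 4). Its scaled counts were 101540, 58565, 107832 and 114037 in control and 35406, 86121, 107485 and 109402 in OGTi. Control replicate 2 and OGTi replicate 1 were low, and the remaining 6 libraries lay between 86121 and 114037. The log2 fold change was -0.24 ± 0.29 (SE, n = 4 pairs, adjusted p = 0.630), and it was 0.17 without replicate 1. Fkbp9, a further isomerase of the family, had a log2 fold change of 0.33 ± 0.34 (SE, n = 4 pairs, adjusted p = 0.561) and -0.14 without replicate 4, in which the control library held 2474 scaled counts against 7514 to 9642 in the other controls.

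The N-proteinases, secreted metalloproteinases that remove the amino-terminal propeptide, gave the largest drops among the 4 genes that passed. Adamts14 had 929, 1415, 1972 and 2283 scaled counts in control replicates 1 to 4 and 273, 705, 621 and 497 in OGTi replicates. No OGTi library reached the lowest control. The log2 fold change was -1.66 ± 0.25 (SE, n = 4 pairs, adjusted p = 0.00194), and single pairs ranged from -1.0 to -2.2. Adamts3, an N-proteinase that also processes a lymphatic growth factor, was expressed at a far lower level, 0.66 ± 0.15 TPM in control and 0.19 ± 0.10 TPM in OGTi (SD, n = 4).

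For Adamts3 the scaled counts were 107, 83.5, 90.2 and 65.5 in control and 37.9, 41.3, 11.0 and 29.9 in OGTi. The groups again did not overlap, and OGTi replicate 3 was the lowest. The log2 fold change was -1.61 ± 0.41 (SE, n = 4 pairs, adjusted p = 0.0225), with 4 of 4 pairs lower. The call was lost when any of 3 replicates was left out, as the adjusted p was 0.0667 without replicate 1, 0.106 without replicate 3 and 0.0541 without replicate 4. Adamts2, the principal N-proteinase of types I and II procollagen, was lower in 4 of 4 pairs by a similar amount in each, from -0.36 to -0.52, but its log2 fold change of -0.44 ± 0.20 (SE, adjusted p = 0.163) did not pass the test. It was called in TPM with limma (-0.67 with 1 added, adjusted p = 0.0485) and was near zero in the fit of 3 against 3 without control replicate 4 and OGTi replicate 1 (-0.07, adjusted p = 0.924).

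**Figure D2:**
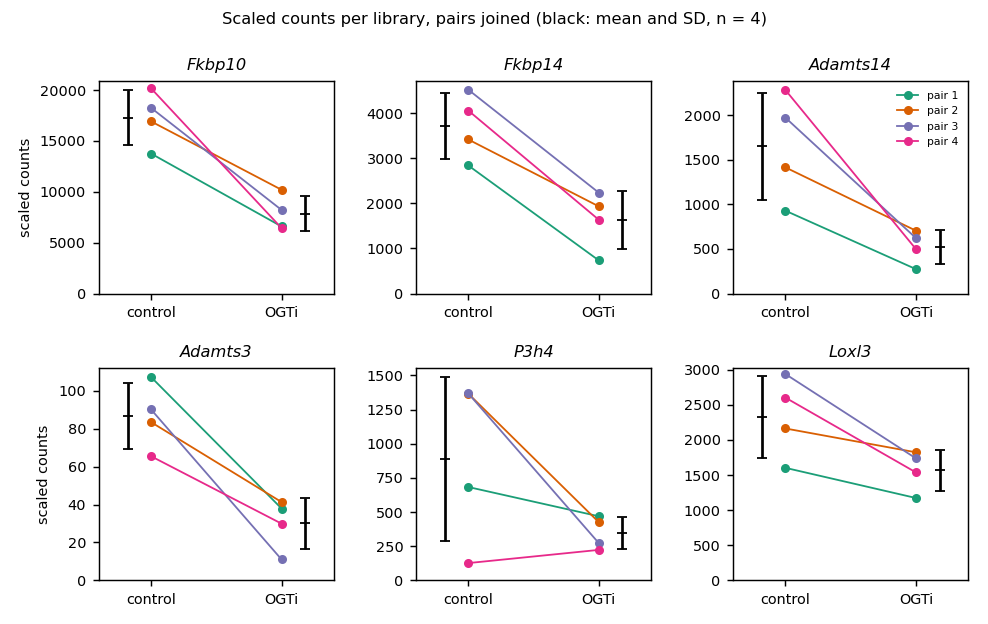
Scaled counts (y axis, linear from 0) of the 4 genes that passed and of P3h4 and Loxl3, in control and OGTi libraries (x axis), with coloured lines joining the libraries of a pair and black marks for the mean and SD (n = 4). Each line falls for Fkbp10, Fkbp14, Adamts14, Adamts3 and Loxl3, whereas for P3h4 pair 4 goes up from a control library of 126 scaled counts.

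The remaining genes of propeptide cleavage showed no change that passed. Bmp1, the main procollagen C-proteinase, had a log2 fold change of 0.05 ± 0.26 (SE, n = 4 pairs, adjusted p = 0.930). Its relative Tll1 was at -0.82 ± 0.35 (adjusted p = 0.135), with 4 of 4 pairs lower but levels that overlapped, 164 to 786 scaled counts in control and 132 to 440 in OGTi, and it was called only with no filter on low counts (adjusted p = 0.0495). Tll2 held at most 11.3 scaled counts in any library. Pcolce, the enhancer that speeds the C-proteinases, was the most abundant gene of the group. It stood at 7672, 8745, 11632 and 14008 scaled counts in control and 8932, 6306, 6721 and 7271 in OGTi. Pairs 2 to 4 were lower and pair 1 was higher, so that the log2 fold change of -0.50 ± 0.23 (SE, n = 4 pairs) did not pass (adjusted p = 0.163), although it was -0.73 without replicate 1 (adjusted p = 0.0262) and -0.34 without replicate 4 (adjusted p = 0.429). In TPM its groups did not overlap, at 282 to 525 in control and 198 to 227 in OGTi, and limma called it (-0.82 with 1 added, adjusted p = 0.0285). Pcolce2, its paralog, was at 0.11 ± 0.29 (adjusted p = 0.848).

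The prolyl 4-hydroxylases, whose product 4-hydroxyproline stabilises the triple helix at body temperature, did not change by the test. P4hb, the protein disulfide isomerase that serves as their beta subunit, held 80170, 80716, 65404 and 81239 scaled counts in control and 60115, 54024, 74091 and 91890 in OGTi. Pairs 1 and 2 went down and pairs 3 and 4 went up, and the log2 fold change was -0.16 ± 0.19 (SE, n = 4 pairs, adjusted p = 0.629). P4ha1, the major catalytic subunit, is described after its values were seen, because its scaled counts did not overlap between groups, with 15620 to 17581 in control and 18781 to 24079 in OGTi. It was higher in 4 of 4 pairs, but its log2 fold change of 0.34 ± 0.17 (SE, adjusted p = 0.205) did not pass, and in TPM the groups did overlap, at 203 to 225 in control and 165 to 254 in OGTi. With a trend over gene length removed from the fit, P4ha1 was called higher, at 0.60 (adjusted p = 0.0224). P4ha2 was at 0.18 ± 0.19 (adjusted p = 0.573), and P4ha3 held at most 41.4 scaled counts in any library.

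Paralogs can be set side by side in TPM, which corrects for length. P4ha1 made up 61.8% ± 4.1 of the summed P4ha1 to P4ha3 TPM in control and 64.5% ± 5.8 after OGTi (n = 4, SD), which is within the spread between libraries, and P4ha3 made up at most 0.32%. Among the lysyl hydroxylases, Plod1 made up 55.9% ± 2.1 in control and 59.7% ± 1.8 in OGTi, and Plod2 7.6% ± 1.5 and 5.27% ± 1.32. Within each pair the share of Plod1 was higher and that of Plod2 lower after OGTi. These shares are a description, with no test.

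**Figure D3:**
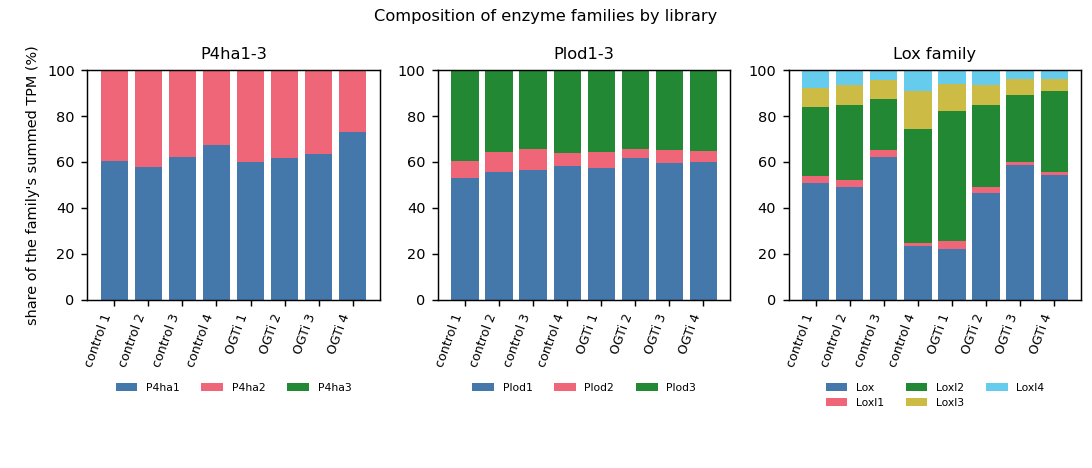
Share of each family's summed TPM (y axis, percent) taken by each paralog in the 8 libraries (x axis), for the prolyl 4-hydroxylase alpha subunits, the lysyl hydroxylases and the lysyl oxidases. Control replicate 4 and OGTi replicate 1 stand apart in the lysyl oxidase panel, where Lox takes 23.5% and 21.9% against 46.5% to 62.3% in the other libraries.

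Prolyl 3-hydroxylase 1, CRTAP and cyclophilin B form a complex that modifies single prolines of the collagen chain and acts as a chaperone. Ppib, which encodes cyclophilin B, was the most abundant, with 13279, 13726, 11549 and 13357 scaled counts in control and 19498, 12494, 11849 and 13186 in OGTi. Only OGTi replicate 1 stood above the control range, and the log2 fold change was 0.11 ± 0.19 (SE, n = 4 pairs, adjusted p = 0.754). P3h1 was at 0.30 ± 0.30 (adjusted p = 0.542) and P3h2 at 0.02 ± 0.22 (adjusted p = 0.962). Without replicate 4, P3h1 was at -0.08. In that replicate the control held 1397 scaled counts of P3h1, against 4169 to 8235 in the other controls. Crtap was at 0.57 ± 0.66 (adjusted p = 0.613), a value that 1 library set. Control replicate 4 held 238 scaled counts of Crtap, whereas the other 7 libraries held 2528 to 4547, and without replicate 4 the log2 fold change was -0.25.

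Lysyl hydroxylation and the glycosylation that follows it prepare collagen for crosslinking. Plod1, which hydroxylates lysines of the helix, held 6222, 7677, 7092 and 8934 scaled counts in control and 6677, 9748, 9236 and 9953 in OGTi. All 4 pairs were higher, but by 0.10 to 0.38 only, and the log2 fold change of 0.25 ± 0.18 (SE, adjusted p = 0.394) did not pass and was -0.08 in TPM. Plod2, the enzyme that acts on the telopeptides, was lower in 4 of 4 pairs, at -0.38 ± 0.23 (SE, adjusted p = 0.30). That value was -0.67 in TPM with limma, which called it (adjusted p = 0.0444), but -0.14 without replicate 2 and -0.09 with the length trend removed (adjusted p = 0.854). Plod3, which also transfers sugars, was at 0.09 ± 0.19 (adjusted p = 0.797). The galactosyltransferase gene Colgalt1 was at 0.03 ± 0.28 (adjusted p = 0.956), and Colgalt2 held at most 11.3 scaled counts in any library.

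P3h3 and P3h4 encode partners of lysyl hydroxylase 1 in an ER complex. P3h3 was higher in 4 of 4 pairs, at 0.37 ± 0.24 on the log2 scale (SE, adjusted p = 0.323). P3h4 had 683, 1368, 1369 and 126 scaled counts in control and 469, 426, 273 and 223 in OGTi. Pairs 1 to 3 were lower and pair 4 was higher, and the log2 fold change over all pairs was -0.97 ± 0.46 (SE, adjusted p = 0.174). P3h4 was called lower without replicate 4, at -1.51 (adjusted p = 0.0356), and, with all 8 libraries, in the fit with no filter on low counts, at -0.98 (adjusted p = 0.0265). P3h4 is the head-to-head neighbour of Fkbp10 on chromosome 11. Their annotated starts, at 100306028 on the minus strand and 100306330 on the plus strand, are separated by 301 bases, and the annotated genes overlap by 221 bases. The authors counted with strand, and P3h4 is singled out here after its values were seen.

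Export from the ER was represented by Mia3 and Sec23a. Sec23a, which encodes a subunit of the inner COPII coat, had 6812, 7331, 8246 and 6830 scaled counts in control and 376, 4468, 7076 and 4579 in OGTi. All 4 pairs were lower, with a log2 difference of -4.18 in pair 1 and of -0.22 to -0.71 in the others, and the log2 fold change of -1.26 ± 0.56 (SE, adjusted p = 0.155) did not pass, although the fit with no filter on low counts called it (adjusted p = 0.00271). Mia3, which encodes TANGO1, was at 0.43 ± 0.23 (SE, adjusted p = 0.239), with pair 1 lower and pairs 2 to 4 higher. Mia3 was called higher without replicate 1, at 0.67 (adjusted p = 0.0356), and, with all replicates, once the length trend was removed, at 0.69 (adjusted p = 0.0229). In that last fit 4 members were lower and 2, Mia3 and P4ha1, were higher.

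Among the crosslinking enzymes none passed the test with all replicates under TMM scaling. Lox, the founding lysyl oxidase, had 11265, 13609, 24835 and 4228 scaled counts in control and 2463, 11018, 17355 and 18237 in OGTi. The spread within groups exceeded the difference between them. Its log2 fold change was -0.27 ± 0.55 (SE, n = 4 pairs, adjusted p = 0.788), and it turned from -0.98 without replicate 4 to 0.38 without replicate 1. Loxl2 was at 0.04 ± 0.19 (adjusted p = 0.912) and Loxl1 at -0.32 ± 0.38 (adjusted p = 0.628).

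Loxl3 and Loxl4 came nearest to a call. Loxl3 was at -0.55 ± 0.21 on the log2 scale (SE, n = 4 pairs, adjusted p = 0.0927), with 4 of 4 pairs lower and scaled counts of 1602 to 2938 in control and 1173 to 1824 in OGTi. It was called lower in 3 of 15 alternatives, at -0.75 with libraries scaled by their totals (adjusted p = 0.0379) and at -0.84 and -0.88 in TPM with limma. Loxl4 was at -0.60 ± 0.24 (SE, n = 4 pairs, adjusted p = 0.120). Its groups did not overlap, at 1937 to 2149 and 814 to 1835 scaled counts, which is given after the values were seen, and it was called with libraries scaled by their totals (-0.80, adjusted p = 0.0479). Loxl2 took 33.7% ± 11.7 of the summed lysyl oxidase TPM in control and 39.1% ± 11.9 in OGTi (SD, n = 4), and Lox took 46.4% ± 16.4 and 45.3% ± 16.4, so that neither share differed beyond the spread. Single replicates set these differences. For Lox the difference, OGTi minus control, was -1.05 points, but 8.25 without replicate 1 and -11.7 without replicate 4. For Loxl2 it was 5.34, but -1.64 and 12.0 in the same order. Tgm2, the transglutaminase that crosslinks glutamine to lysine, had 46125, 36816, 45712 and 57404 scaled counts in control and 21753, 29570, 42462 and 50860 in OGTi. All 4 pairs were lower, with log2 differences of -0.11 to -1.08, and the log2 fold change of -0.42 ± 0.21 (SE, adjusted p = 0.194) did not pass.

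The genes ranged widely in abundance, and in both groups the ER chaperones and isomerase subunits led. In TPM, control means were 2242 for Serpinh1, 1424 for P4hb, 868 for Ppib and 684 for Tgm2, against 0.03 for Tll2, 0.06 for Colgalt2, 0.47 for P4ha3 and 0.66 for Adamts3. The next pair in that order, Pcolce at 393 ± 112 TPM and Fkbp10 at 356 ± 59.3 TPM (SD, n = 4), did not differ beyond their spread in control, whereas in OGTi they stood at 216 ± 12.8 and 132 ± 43.8. Summed over the 35 genes, the TPM was 7248, 6714, 8025 and 8044 in control replicates 1 to 4 and 3540, 5829, 5899 and 6540 in OGTi replicates 1 to 4. Each OGTi library was below its own control and below every control. TPM is a share of the library, and on that scale the median of all genes also moved, by -0.10 with 1 added before the logarithm and by -0.24 with 0.1 added. For the same libraries, Col1a1, Col1a2 and Col3a1 together amounted to 490, 872, 1257 and 1522 TPM in control and 85.2, 589, 705 and 966 TPM in OGTi. The summed members per unit of these collagens were thus 14.8, 7.70, 6.38 and 5.28 in control and 41.5, 9.89, 8.37 and 6.77 in OGTi, higher after OGTi in 4 of 4 pairs. The ratio was not tested. Serpinh1, P4hb, Ppib and Tgm2, none of which passed, held the largest means in the sum. Their effective lengths were 2080, 2629, 728 and 3317 bases, against 5698, 4990 and 5332 for Col1a1, Col1a2 and Col3a1. OGTi replicate 1, at 41.5, was the library in which long genes were low relative to short ones, as given below.

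Both control replicate 4 and OGTi replicate 1 stood apart within their groups. Of the 32 members with a mean of at least 50 scaled counts, 9 were at least 2-fold below the other controls (mean of their log2 values) in control replicate 4, namely P3h1, P3h4, Crtap, Colgalt1, Fkbp9, Tll1, Pcolce2, Lox and Loxl1, and 4 of them at least 4-fold. In OGTi replicate 1, 5 members were at least 2-fold below the other OGTi libraries, namely Serpinh1, Fkbp14, Sec23a, Adamts14 and Lox, and 2 of them at least 4-fold. In the latter library, with genes divided into 5 classes of length, the shortest class had a median log2 deviation of 0.59 from the other OGTi libraries and the longest class one of -0.48. In OGTi replicate 4 the same medians were -0.37 and 0.18. The part of these length differences in the results was not tested beyond the fit with a length trend removed. With both libraries left out and no pairing (3 against 3, an alternative chosen after the data were seen), edgeR called 6 members, 5 lower and 1 higher. The 4 genes named at the outset stayed lower in that fit, P3h4 was lower at -1.86 (adjusted p = 0.00943), and Mia3 was higher at 0.79 (adjusted p = 0.0271).

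**Figure D4:**
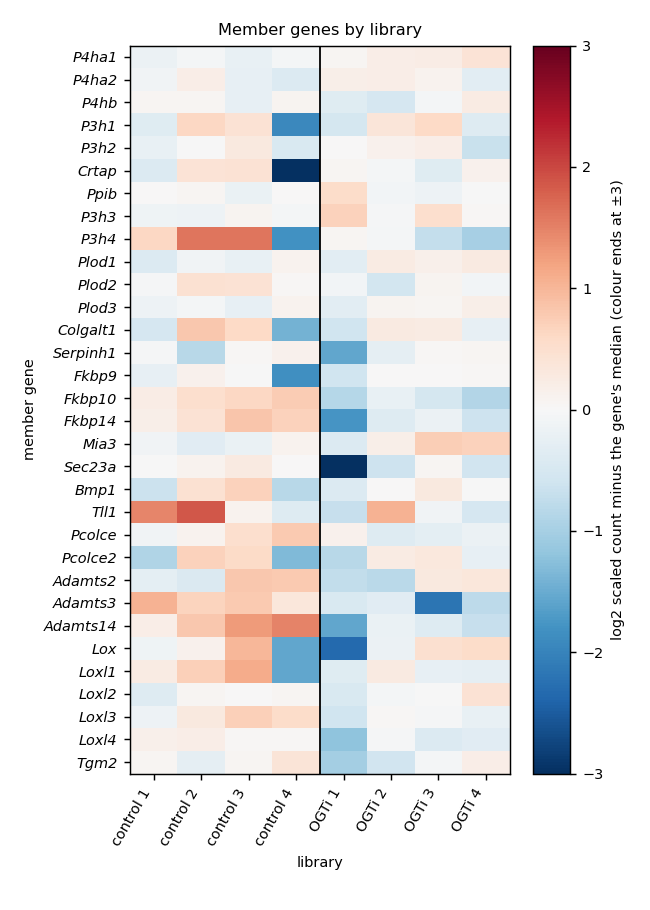
Log2 scaled count of 32 members (rows) in each library (columns) minus the median of that gene over the 8 libraries, with colour ending at -3 and 3; the 3 members with a mean under 50 are left out. The dark blue cells of Crtap in control replicate 4 and of Sec23a in OGTi replicate 1 show single libraries, while Fkbp10, Fkbp14, Adamts14 and Adamts3 lie below their median in each OGTi column.

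Beyond the 4 genes that fell, 10 members were called in at least 1 of the 15 alternatives and not in the analysis with all replicates under TMM scaling. Loxl3 was called in 3, with log2 fold changes from -0.88 to -0.29 and adjusted p from 0.0235 to 0.333 over the alternatives. Pcolce was called in 3 (-0.82 to -0.34, adjusted p 0.0239 to 0.431), P3h4 in 3 (-1.86 to -0.49, 0.00943 to 0.548) and Mia3 in 3 (0.13 to 0.79, 0.0229 to 0.747). Plod2 was called in 2 (-0.71 to -0.09, adjusted p 0.0444 to 0.854) and Adamts2 in 2 (-0.75 to -0.07, 0.0452 to 0.924). Loxl4 was called in 1 (-0.92 to -0.34, adjusted p 0.0479 to 0.245), Sec23a in 1 (-1.74 to -0.44, 0.00271 to 0.373), Tll1 in 1 (-1.11 to -0.39, 0.0495 to 0.334) and P4ha1 in 1 (0.02 to 0.60, 0.0224 to 0.945). None of these 10 changed direction over the alternatives, but none held its call in more than 3 of them. By contrast, Fkbp10 ranged from -1.47 to -0.95, Fkbp14 from -1.60 to -0.86 and Adamts14 from -1.95 to -1.21, each called in 15 of 15, and Adamts3 from -1.80 to -0.47, called in 12.

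The clients of this machinery, the fibrillar collagens, mostly did not pass the test in edgeR. Of 11 genes, 1 fell (9.09%, near the 10.2% of all genes tested) and 0 rose (against 8.13%). The median log2 fold change was -0.63, against 0.01 over all genes tested. Both the count and the median depended on the processing. The count was 0 to 5 over the alternatives, and the median was -0.40 with the length trend removed and -0.0007 in the fit of 3 against 3. The gene that fell was Col11a1, a minor fibrillar chain, at -1.58 ± 0.47 (SE, n = 4 pairs, adjusted p = 0.0428). For the major chains, Col1a1 was at -0.85 ± 0.30 (adjusted p = 0.0761), Col1a2 at -0.54 ± 0.24 (adjusted p = 0.153) and Col3a1 at -0.72 ± 0.23 (adjusted p = 0.0517), each lower in 4 of 4 pairs (SE). Pair 1, which holds OGTi replicate 1, gave the largest log2 difference for each, at -2.21 for Col1a1 against -0.38 to -0.52 in the other pairs, -1.29 for Col1a2 against -0.02 to -0.68, and -1.50 for Col3a1 against -0.32 to -0.69. These values stand beside -1.15 for Fkbp10 and -1.66 for Adamts14, but the differences between genes were not tested.

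Of 20 genes of COPII transport and procollagen export outside the member list, 4 fell (20%, against 10.2% of all genes tested) and 1 rose (5%, against 8.13%), with a median of -0.20. The balance moved with the processing, to 3 lower and 3 higher with a median of -0.02 in the fit of 3 against 3, and to 7 lower and 0 higher in TPM. Creb3l2, a membrane-bound transcription factor that drives secretory genes including those of the COPII coat, fell by 1.27 on the log2 scale (SE 0.25, n = 4 pairs, adjusted p = 0.00671). Sec24d, the cargo-binding COPII subunit needed for procollagen, fell by 1.47 (SE 0.31, adjusted p = 0.00900), from 6513 to 8407 scaled counts in control to 947 to 3853 in OGTi. Sec16b, an organiser of ER exit sites, also fell, from 5.5 to 58.9 scaled counts in control to at most 4.5 in OGTi (adjusted p = 0.00591). Creb3l1, the relative of Creb3l2 that acts on collagen genes, was likewise lower (-1.10 ± 0.24, SE, adjusted p = 0.0109), and Mia2, whose product partners TANGO1, was the gene that rose (0.97 ± 0.24, SE, adjusted p = 0.0194); both are named after their values were seen.

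Among 26 genes of general ER folding, 3 rose and 0 fell, with a median of 0.28. The share that rose, 11.5%, was near the 8.13% of all genes tested. Dnajb9, a co-chaperone of BiP, rose by 1.45 (SE 0.24, n = 4 pairs, adjusted p = 0.00311), Hspa5, which encodes BiP itself, by 1.59 (SE 0.34, adjusted p = 0.0102), and Calr, the lectin chaperone calreticulin, by 0.56 (SE 0.17, adjusted p = 0.0437). In TPM, however, 3 genes of this list were called lower and 1 or 2 higher, depending on the pseudocount, with a median of -0.05. Fkbp10 and Fkbp14 share the ER with these chaperones but fell. Within the list of 26, however, 17 fold changes were positive and 9 negative. The isomerase gene Fkbp11 was among the latter, at -0.52 ± 0.22 (SE, adjusted p = 0.135), lower in 4 of 4 pairs. The difference between the 2 members and the list was not tested. Several hydroxylase genes are known targets of hypoxia-inducible factors, and a list of 21 other such targets gave 3 genes higher and 3 lower, with a median of -0.04. Each direction held 14.3% of the list, against 8.13% higher and 10.2% lower of all genes tested. Ndrg1, a stress-responsive gene, rose by 3.08 (SE 0.27, n = 4 pairs, adjusted p = 0.00021) and the glucose transporter gene Slc2a1 by 0.86 (SE 0.19, adjusted p = 0.0102). Adm, which encodes the vasodilator adrenomedullin, fell by 1.63 (SE 0.22, adjusted p = 0.00129).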

How the data were processed

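Primary mouse pMF-HSCs were profiled in 4 control and 4 OGTi libraries, grouped and numbered by the sample titles. Per the labels, the authors made stranded libraries after oligo-dT enrichment. By their methods they aligned paired-end reads with Bowtie2 2.3.5.1 to mm39 and counted them with RSEM 1.3.1 with strand. GENCODE is the annotation given in the methods, but transcripts carry RefSeq identifiers in the files. The deposited tables hold an expected count per gene, which need not be whole, and TPM, which the authors scaled by effective length and depth. A deposited comparison table of DESeq2 fold changes and p-values was not used. Columns of per-sample values left unused numbered 0.

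Expected counts were rounded and fitted with edgeR 4.0.16 (R 4.3.3, TMM, glmQLFit, glmQLFTest) over genes with at least 10 counts in total, with the replicate number as a block, since the methods pair same-numbered samples. Deviations of same-numbered libraries correlated weakly (r of 0.160, 0.224, 0.105 and 0.318 across genes, other combinations -0.312 to 0.208). The same number did not always give the highest r. OGTi replicate 1 reached 0.208 with control replicate 2, and control replicate 3 reached 0.122 with OGTi replicate 4. P-values were adjusted by Benjamini-Hochberg over all 19963 genes and called at 0.05. A standard error is the log2 fold change over the root of F. Scaled counts are counts over the TMM-adjusted library size times the mean of that size. The code was tested on simulated data. DESeq2 1.42.0, limma 3.58.1 on log2 TPM (pseudocounts 1 and 0.1), other scalings and filters, removal of a length trend, and leaving out each replicate were alternatives. Each library held 30068876 or more counts, so the spread between cultures, not counting error, set the precision of all but the lowest genes.

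The 35 members and the other lists were chosen with earlier results of these data known. Values per library were given for members called and for the member of each role with the highest mean TPM, the others by fold change; those of Lox, P3h4 and ranges of some others were added after their values were seen. From each other list the 3 called genes of lowest p were named, and Col1a1, Col1a2 and Col3a1 throughout. Gene positions and upstream windows came from GRCm39 with GENCODE annotation, the same build as mm39. The hepatocyte marker Tf was not used here.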

Additional observations from a re-analysis of the deposited data

Results flagged for a closer look

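In 4 of 70 groups of 4 libraries (35 members in each of the groups), 1 library lay far from the other 3 by Dixon's criterion, where chance gives about 3.5, or 1 in 20 groups. P4hb stood at 65403.6 scaled counts in control replicate 3, against 80169.7 to 81239.3 in the other controls. Fkbp9 was low in OGTi replicate 1, at 5846.7, while the remaining OGTi libraries held 8928.3 to 9123.7. Loxl1 was high in OGTi replicate 2, at 454.5, where the range was otherwise 294.9 to 320. Loxl2 stood at 8129.6 in control replicate 1, against 10780 to 11078.6 in the others. None of these 4 genes passed the test between groups.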

How the results depend on the processing

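Of the alternatives, DESeq2, upper-quartile scaling, RLE size factors, filterByExpr and the fit without the replicate block each called 4 members, library totals and the fit with the length trend removed 6 (in the latter 4 lower and 2 higher), the fit with no low-count filter 7 and limma-trend on TPM 8 with either pseudocount (1 or 0.1). These counts should be read against all genes called in the same fits. Those numbered 4668 in DESeq2, 3783 with upper-quartile scaling, 3601 with RLE and 3704 of 14648 tested with filterByExpr. They were 2991 without the block, 4167 with library totals and 4086 with the length trend removed. With no filter 4555 of 27756 tested were called, and in TPM 4651 and 4709 of 19963. Fits that left out a replicate called 3 to 5 members and 1905 (without replicate 3) to 3124 genes in all, with 1956 without replicate 4, against 3666 with all replicates. The fit of 3 against 3, chosen after the data were seen, called 6 members and 2797 of 19259 genes. Fkbp10, Fkbp14 and Adamts14 were called lower in 15 of 15 alternatives and Adamts3 in 12. Over all members, 444 values kept their direction and call, 20 passed the threshold in addition, 3 no longer passed and 56 changed sign, none of them a called gene. Since scaling moved the median of all genes (0.13 with upper-quartile scaling, -0.19 with library totals, -0.10 and -0.24 in TPM), fold changes should be read against it. Of all genes called, 54.2% were higher with upper-quartile scaling and 26.2% in log2(TPM + 0.1). Pairing changed no count of members, as the replicate block and its absence both gave 4. Without the block, general ER folding gave 2 calls in place of 3 and COPII and export genes 6 in place of 5.

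Fibrillar collagens called numbered 1, but 2 in DESeq2, 5 with library totals, 4 with no filter, 4 in TPM with either pseudocount, and 0 with filterByExpr, with no replicate block, with the length trend removed or in the fit of 3 against 3; leaving out a replicate gave 0 to 2. Genes of general ER folding called numbered 3, but 8 with no filter, 5 in log2(TPM + 0.1) and 1 to 6 without a replicate. Targets of hypoxia-inducible factors called numbered 6, but 3 with no replicate block and 3 to 4 without a replicate, and COPII and export genes 5, but 3 to 6 without a replicate. The cause was not tested.

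Signs of uncalled members (log2 fold changes) changed as follows. With library totals in place of TMM these were P4ha2 -0.0194, P3h2 -0.17, Ppib -0.0861, Plod3 -0.10, Colgalt1 -0.16, Bmp1 -0.15, Pcolce2 -0.0876 and Loxl2 -0.15. In limma-trend on log2(TPM + 1) these were P4ha2 -0.15, P3h1 -0.0142, P3h2 -0.26, Ppib -0.22, Plod1 -0.0794, Plod3 -0.23, Colgalt1 -0.27, Bmp1 -0.26, Pcolce2 -0.20 and Loxl2 -0.28. In limma-trend on log2(TPM + 0.1) these were P4ha2 -0.15, P3h1 -0.0105, P3h2 -0.30, Ppib -0.22, Plod1 -0.0804, Plod3 -0.24, Colgalt1 -0.27, Bmp1 -0.27, Pcolce2 -0.21 and Loxl2 -0.28. In the fit of 3 against 3 these were P3h1 -0.0156, P3h2 -0.0726, Crtap -0.24, Ppib -0.0071, Colgalt1 -0.27, Colgalt2 -0.26, Serpinh1 0.21, Bmp1 -0.14 and Pcolce2 -0.12. Without the replicate block these were Colgalt1 -0.16, Bmp1 -0.0777 and Pcolce2 -0.07. Leaving out a replicate gave ranges of -0.75 to 0.13 for P4ha3, -0.27 to 0.0084 for P4hb, -0.0826 to 0.53 for P3h1, -0.0512 to 0.10 for P3h2, -0.25 to 1.16 for Crtap, -0.0373 to 0.22 for Ppib, -0.32 to 0.26 for Colgalt1, -0.49 to 0.17 for Serpinh1, -0.14 to 0.58 for Fkbp9, -0.19 to 0.24 for Bmp1, -0.20 to 0.33 for Pcolce2, -0.98 to 0.38 for Lox, -0.79 to 0.0495 for Loxl1 and -0.0646 to 0.12 for Loxl2. Depth limits P4ha3, Colgalt2 and Tll2, with few counts in each library.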
